A study of Mus musculus with 8 samples.

Results

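Polyamines are small positively charged metabolites that bind nucleic acids and are needed for growth and translation. Odc1 encodes ornithine decarboxylase, which makes putrescine and is the controlled entry step. The synthases encoded by Srm and Sms then build spermidine and spermine with aminopropyl groups from decarboxylated S-adenosylmethionine, the product of the Amd1 enzyme, and each addition releases methylthioadenosine. Mtap encodes the phosphorylase that clears methylthioadenosine, a known product inhibitor of these synthases. On the catabolic side, Sat1 encodes the acetyltransferase that marks spermidine and spermine for export or oxidation, Paox the oxidase of the acetylated forms, and Smox the oxidase of spermine. Antizymes (Oaz1, Oaz2) bind ornithine decarboxylase and send it to the proteasome, and antizyme inhibitor (Azin1), a relative of ornithine decarboxylase without its activity, sequesters antizyme. Much of this control acts on translation and protein turnover, which mRNA arrays do not measure.

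Transcripts of these 10 genes were examined in livers of 4 MTAP+/- mice, heterozygous for Mtap, and 4 MTAP+/+ mice. All 8 were C57BL/6 males aged 92 to 101 days, with 1 Affymetrix whole-genome array per mouse. The labels do not describe the altered allele, the litters or the time of tissue collection. Members were the probe sets (groups of short probes that report on a transcript) annotated with exactly 1 gene symbol among the 10. This gave 14 of the 45037 probe sets tested, for 7 of the 10 genes. They were 3 for Odc1, 1 for Srm, 1 for Sat1, 2 for Smox, 1 for Oaz1, 3 for Oaz2 and 3 for Azin1. Amd1, Sms and Paox had 0 under this rule, and their expression is not analysed here.

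Where a gene has several probe sets, they are called brightest, second and so on to dimmest by their mean signal over the 8 livers. Values are RMA signals on the log2 scale, and a change is the MTAP+/- mean minus the MTAP+/+ mean. The test was limma across all 45037 probe sets, with adjusted p by Benjamini-Hochberg over all of them and a threshold of 0.05. All 4 Mtap probe sets fell in MTAP+/- liver, with changes of -0.80, -1.50, -1.63 and -1.002 from the brightest to the dimmest and adjusted p from 0.00443 to 0.0414. The call of the dimmest Mtap probe set held when any 1 array was left out, that of the brightest was lost without any 1 of the 8, with the replicate number as a block (adjusted p = 0.0802) and with the trend and robust settings of eBayes (0.0544), at an unchanged fold in these last fits, and those of the other 2 were lost without MTAP+/- replicates 1, 3 or 4 or MTAP+/+ replicates 1, 2 or 3. All 8 measured hepatocyte markers lay above the median of all probe sets. The lowest, Hnf4a, had a mean signal of 11.25 over the 8 livers, against a median of 3.94. By genotype 0 of 8 had an unadjusted limma p under 0.05, where 8.41% of all probe sets did. In whole liver, fewer cells of a type and less RNA per cell cannot be told apart.

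Of the 14 polyamine probe sets 0 passed the threshold, where 0.0355% of all probe sets did. At an unadjusted p under 0.05 limma listed 3 of the 14, namely Sat1 and 1 probe set of Azin1 with higher signals in MTAP+/- liver and Srm with a lower one, where 8.41% of all probe sets were listed. The same 3 were the members that changed by 0.4 log2 units or more in size, against 5.42% of all. The genotypes did not overlap for 1 of the 14, Sat1, where this was so for 4.35% of all. The median change of the 14 was 0.05, against -0.01 over all probe sets, and the median size of change was 0.10 in both.

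**Figure D1:**
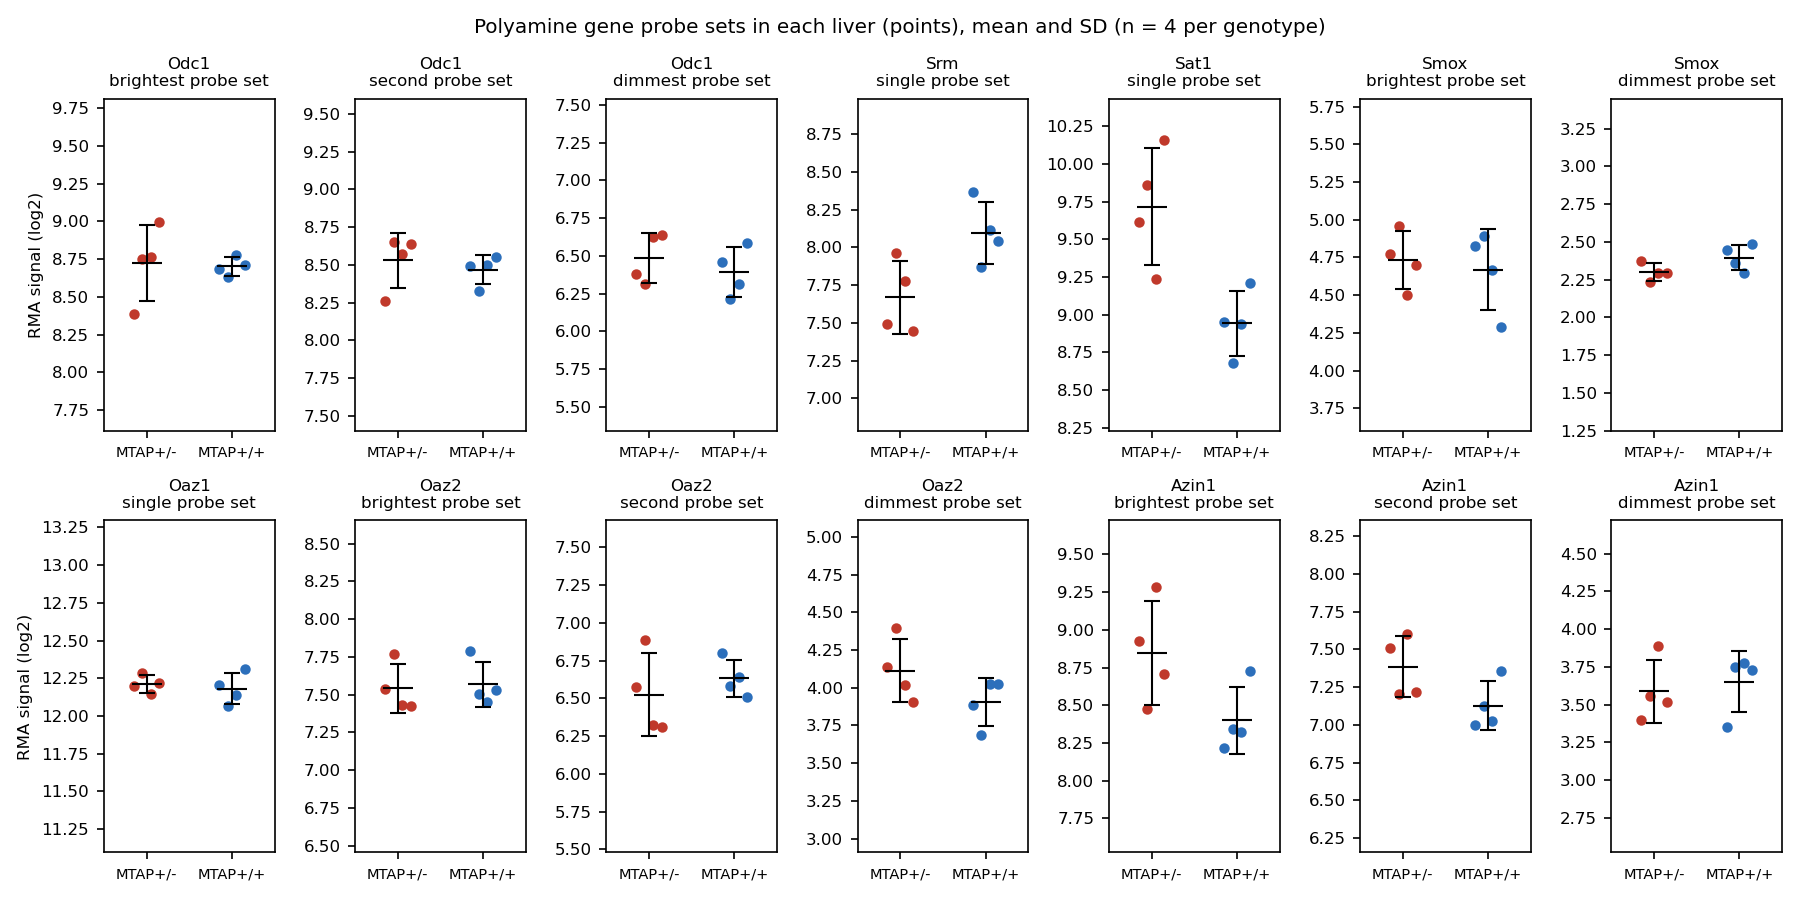
RMA signal (log2, vertical axis, each panel spanning the same number of units) of the 14 polyamine probe sets in each liver, with MTAP+/- in red and MTAP+/+ in blue, and mean and SD in black (n = 4 per genotype). Sat1 is the panel where all 4 MTAP+/- livers lie above all 4 MTAP+/+ livers, while the Odc1, Oaz1 and Smox panels overlap broadly.

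Sat1, the acetyltransferase gene of polyamine breakdown, had the largest change among the 14. Its single probe set read 9.61, 9.86, 9.24 and 10.16 in MTAP+/- livers 1 to 4, against 8.95, 8.68, 8.94 and 9.21 in MTAP+/+ livers 1 to 4. Every MTAP+/- liver was above every MTAP+/+ liver, though the lowest MTAP+/- liver and the highest MTAP+/+ liver were close together. The means were 9.72 ± 0.39 in MTAP+/- and 8.94 ± 0.22 in MTAP+/+ liver (SD, n = 4 each). The change was 0.77 ± 0.19 (SE), a 1.71-fold difference with a 95% interval of 1.28 to 2.27. The limma adjusted p was 0.269, and the exact permutation p was 0.0286, the smallest possible with n = 4 per group. Sat1 stood at rank 294 of 45037 by p. It was also among the more variable probe sets, with a within-genotype spread at or above that of 89.3% of all.

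The Sat1 difference did not rest on a single liver. Leaving out each array in turn gave changes from 0.63 to 0.93, the lowest without MTAP+/- replicate 4 and the highest without MTAP+/- replicate 3. The adjusted p stayed above the threshold under all 16 alternatives, from 0.145 to 0.597. The direction was thus the same in each version of the fit, and the adjustment over all probe sets was not passed in any.

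Since Sat1 opens catabolism and Odc1 opens synthesis, the bases just before both genes are given from RefSeq (GRCm38.p6), 5′ to 3′ on the strand of the gene. Capitals mark the GC box GGGCGG or its complement CCGCCC, the element bound by Sp1. Sat1 is shown at chrX:155216450-155216699 (minus strand) and Odc1 at chr12:17544623-17544807 (plus strand).
Sat1: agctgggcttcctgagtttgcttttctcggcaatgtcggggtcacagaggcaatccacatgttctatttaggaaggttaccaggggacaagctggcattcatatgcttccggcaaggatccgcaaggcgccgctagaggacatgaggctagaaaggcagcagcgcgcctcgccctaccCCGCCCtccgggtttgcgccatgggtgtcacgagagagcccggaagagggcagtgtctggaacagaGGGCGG
Odc1: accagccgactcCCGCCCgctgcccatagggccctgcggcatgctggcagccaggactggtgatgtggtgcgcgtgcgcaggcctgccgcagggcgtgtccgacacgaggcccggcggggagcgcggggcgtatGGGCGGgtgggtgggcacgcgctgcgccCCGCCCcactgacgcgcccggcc
The Sat1 stretch of 250 bases held 2 such boxes and the Odc1 stretch of 185 bases held 3. Windows of 250 bases before to 50 after a start were listed for 8 of the 10 genes, not for Srm and Azin1. Sms and Paox had 2 windows each. Oaz1 was the gene with a window but no GC box. The box was in 8 of the 10 windows, against 35.7% of all 32851 windows. The E-box CACGTG, a palindrome bound by MYC and by the clock activators, was in 1 of the 10, at Sms, against 7.15% of all. The letters TGACTAA or TTAGTCA, the core of a polyamine-responsive element described for human SAT1, were in 0 of the 10, against 2.35% of all. None of these 3 motifs contains another, and a match is only a match of letters.

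On the synthetic side, Odc1 signals were close in both genotypes at all 3 probe sets. The brightest read 8.38, 8.75, 8.76 and 8.99 in MTAP+/- livers, against 8.68, 8.63, 8.78 and 8.71 in MTAP+/+ livers. MTAP+/- liver 1 had the lowest and MTAP+/- liver 4 the highest of these 8 values, so the MTAP+/- livers enclosed the MTAP+/+ livers. The second ran from 8.26 to 8.65 in MTAP+/- and from 8.33 to 8.55 in MTAP+/+ livers, and the dimmest from 6.31 to 6.64 in MTAP+/- and from 6.22 to 6.59 in MTAP+/+ livers. From brightest to dimmest the changes were 0.02, 0.06 and 0.09, with limma adjusted p of 0.980, 0.921 and 0.882. Their 95% intervals reached from -0.26 to 0.36 in all, so a fold above 1.28 or below 0.836 lay outside each interval.

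Srm, the spermidine synthase gene, had a lower mean in MTAP+/- liver, the opposite direction to Sat1. Its single probe set read 7.495, 7.96, 7.78 and 7.45 in MTAP+/- livers, against 8.37, 7.87, 8.12 and 8.04 in MTAP+/+ livers. MTAP+/- livers 1, 3 and 4 were below every MTAP+/+ liver, and MTAP+/- liver 2 was above MTAP+/+ liver 2. The means were 7.67 ± 0.24 in MTAP+/- and 8.10 ± 0.21 in MTAP+/+ liver (SD, n = 4 each). The change was -0.43 ± 0.14 (SE), or 0.744-fold with a 95% interval of 0.596 to 0.928. The limma adjusted p was 0.450, and the exact permutation p was 0.0571. Left-out arrays moved the change between -0.52 (without MTAP+/- replicate 2) and -0.34 (without MTAP+/+ replicate 1). Srm and Mtap are both on chromosome 4 in the RefSeq gene table. Their distance was not examined, and a part of linked sequence in the Srm difference was not tested.

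**Figure D2:**
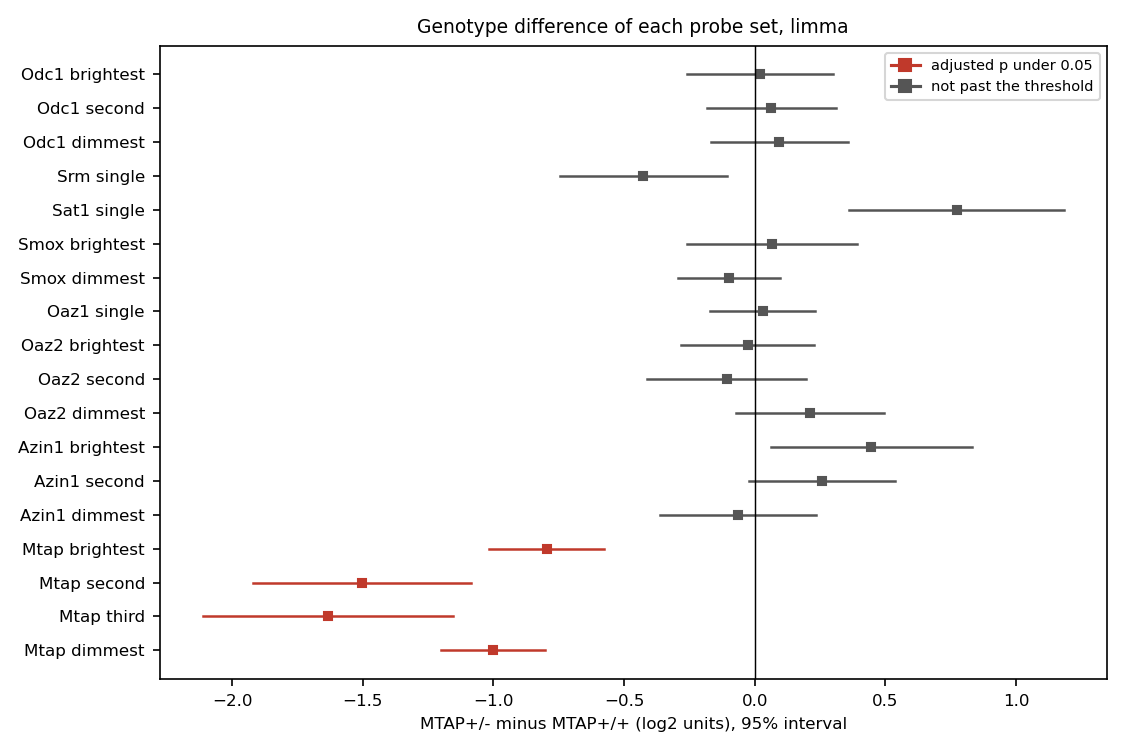
Change of each polyamine probe set and of the 4 Mtap probe sets (horizontal axis, MTAP+/- minus MTAP+/+ in log2 units, with 95% intervals from limma). The 4 Mtap probe sets are past the threshold, and the intervals of Sat1, Srm and the brightest Azin1 probe set leave out 0 without passing the adjustment.

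Of the spermine oxidase gene Smox, both probe sets overlapped between genotypes, where 4.35% of all probe sets did not. The brighter one read 4.77, 4.96, 4.50 and 4.70 in MTAP+/- livers, against 4.82, 4.89, 4.67 and 4.29 in MTAP+/+ livers. Its change was 0.06 (95% interval -0.26 to 0.39, limma adjusted p = 0.941). The dimmer one had signals from 2.23 to 2.38 in MTAP+/- and 2.29 to 2.48 in MTAP+/+ livers, below the median of 3.94 over all probe sets, and its change was -0.10. Of the 14 probe sets 12 were above that median, and the 2 below it were this one and the dimmest of Azin1.

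The antizyme genes had overlapping genotypes, with 0 of 4 probe sets past the threshold. Of all probe sets 4.35% did not overlap and 0.0355% passed. Oaz1 read 12.20, 12.28, 12.14 and 12.22 in MTAP+/- livers, against 12.21, 12.07, 12.14 and 12.31 in MTAP+/+ livers. Its change was 0.03 (95% interval -0.17 to 0.23, limma adjusted p = 0.958). Its within-genotype spread was at or above that of just 5.75% of all probe sets, so Oaz1 was steady from liver to liver. Oaz2, a second antizyme gene, had changes of -0.03, -0.11 and 0.21 from its brightest to its dimmest probe set, with adjusted p of 0.971, 0.884 and 0.707. MTAP+/- liver 2 had the highest signal of the MTAP+/- livers at each of these 3 probe sets, at 7.77, 6.89 and 4.40.

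Azin1, the antizyme inhibitor gene, had higher means in MTAP+/- liver at its 2 brighter probe sets and a change of -0.06 at the dimmest (adjusted p = 0.936). The brightest read 8.92, 8.47, 9.28 and 8.71 in MTAP+/- livers, against 8.22, 8.34, 8.32 and 8.72 in MTAP+/+ livers. MTAP+/- livers 1 and 3 were above every MTAP+/+ liver, and MTAP+/+ liver 4 was above MTAP+/- livers 2 and 4. The change was 0.45 ± 0.17 (SE), or 1.36-fold with a 95% interval of 1.04 to 1.78, with a limma adjusted p of 0.520 and an exact permutation p of 0.0857. The second read 7.51, 7.20, 7.60 and 7.22 in MTAP+/- livers, against 6.998, 7.12, 7.03 and 7.35 in MTAP+/+ livers, a change of 0.26 with an adjusted p of 0.627. Over the 8 livers the 2 probe sets followed each other closely (Pearson r = 0.966).

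A measure of RNA quality moved with Azin1. The gap in signal between the 3′ end and the 5′ end of Actb and Gapdh, read from control probe sets in log2 units, was 1.101, 0.713, 1.12 and 1.08 in MTAP+/- livers, against 0.959, 0.963, 0.880 and 1.04 in MTAP+/+ livers. The 4 livers with the highest values, MTAP+/- 1, 3 and 4 and MTAP+/+ 4, were also the 4 with the highest signals at the brightest Azin1 probe set. With this gap as a covariate the Azin1 change was 0.38 (adjusted p = 0.358), while that of Sat1 was 0.79 (adjusted p = 0.165) and that of Srm -0.39 (adjusted p = 0.326). By genotype the quality measure averaged 1.005 ± 0.195 in MTAP+/- and 0.960 ± 0.066 in MTAP+/+ liver (SD, n = 4 each, exact permutation p = 0.743).

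For the genes with several probe sets, the difference between probe sets within each liver was compared between genotypes for 10 pairs. By the exact permutation test 1 of 10 pairs had an unadjusted p under 0.05, the second and the dimmest of Azin1, and 0 passed after Benjamini-Hochberg adjustment, which 1 pair alone could not pass with 4 livers per group. The dimmest Azin1 probe set lies below the median signal, and MTAP+/+ liver 1 stood apart there.

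**Figure D3:**
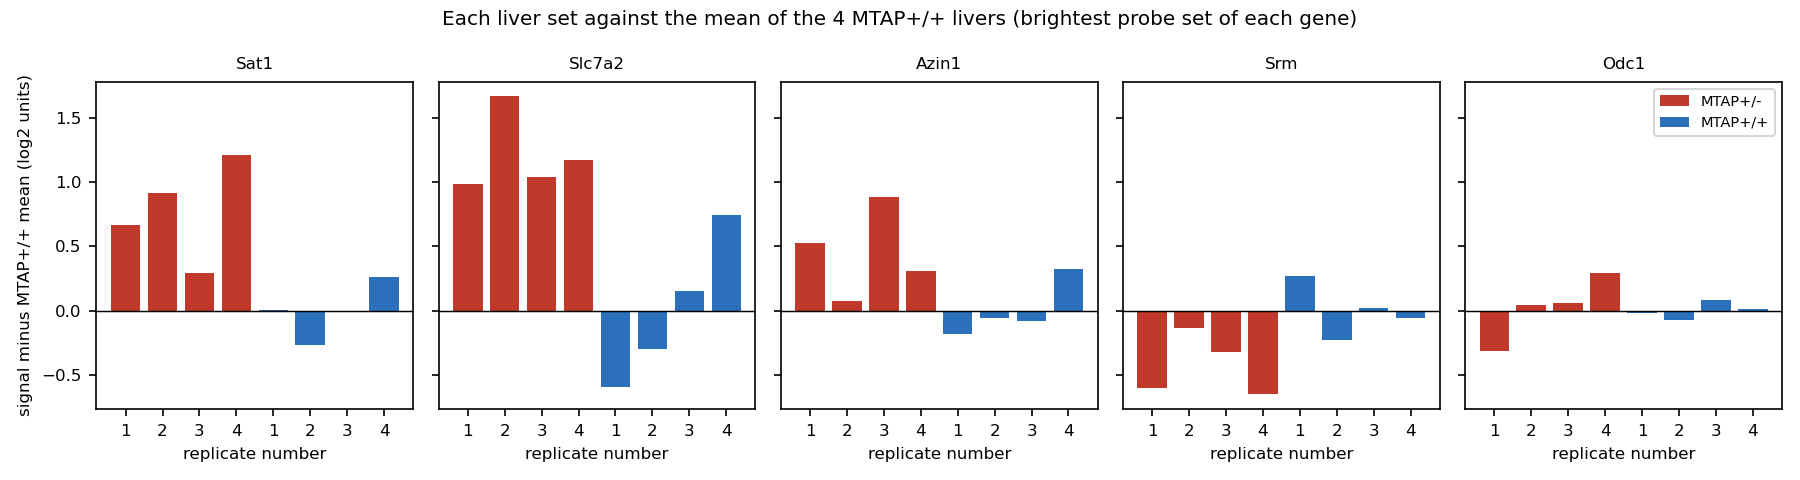
Signal of 5 genes, each at its brightest probe set, in each liver minus the mean of the 4 MTAP+/+ livers (vertical axis, log2 units), with MTAP+/- replicates 1 to 4 in red left of MTAP+/+ replicates 1 to 4 in blue. MTAP+/- liver 3 has the lowest Sat1 and the highest Azin1 bar among MTAP+/- livers, and Odc1 stays near 0 except in MTAP+/- livers 1 and 4.

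The members did not move as a block from liver to liver. Among MTAP+/- livers, liver 4 had the highest Sat1 (10.16) and the lowest Srm (7.45), while liver 3 had the lowest Sat1 (9.24) and the highest Azin1 (9.28). Liver 2 had the second highest Sat1 (9.86) with the highest Srm (7.96) and the lowest Azin1 (8.47) of the MTAP+/- livers. Within MTAP+/+ livers, liver 4 had the highest Sat1 (9.21), Azin1 (8.72) and Oaz1 (12.31) signals and the lowest Smox signal (4.29).

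The genes whose signals followed Sat1 most closely over the 8 livers were taken from 19936 probe sets of brighter than median signal. They were Susd1 (Pearson r = 0.972), Fxyd5 (0.971), Rgs5 (0.966), Mt1 (0.966) and Cpd (0.964). These values describe 8 livers that include the genotype difference, and they are the highest of many. Mt1, a zinc-binding metallothionein induced in stressed liver, read 8.92, 10.67, 7.79 and 11.26 in MTAP+/- livers, against 6.75, 5.97, 6.83 and 6.49 in MTAP+/+ livers. As for Sat1, MTAP+/- liver 4 was highest, liver 2 next and liver 3 lowest of the MTAP+/- livers. Susd1, Fxyd5 and Rgs5 had the same order, which the choice by correlation with Sat1 favours. Mt1 did not pass the threshold either (change 3.15, limma adjusted p = 0.181).

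Markers of other cells and of the daily clock were read in the same livers, and 0 of them passed the threshold. At an unadjusted p under 0.05, 8.41% of all probe sets were listed, 4.56% higher and 3.85% lower. Of 10 macrophage and Kupffer cell markers 8 had higher means in MTAP+/- liver, 5 with an unadjusted p under 0.05, and their summed linear signal ran from 5035 to 7351 in MTAP+/- against 4272 to 5123.5 in MTAP+/+ livers. Their mean log2 signal was 7.999, 8.82, 8.12 and 8.55 in MTAP+/- livers, against 8.05, 8.09, 8.02 and 7.81 in MTAP+/+ livers, so MTAP+/- livers 2 and 4 were highest in both this mean and Sat1. The markers did not move together in MTAP+/- liver 2. Marco was at 9.97 there, against 4.73 to 6.44 in the other MTAP+/- livers and 4.70 to 7.60 in MTAP+/+ livers. Adgre1 (8.93), Cd68 (7.41), Cd5l (11.29), Timd4 (5.98), Lyz2 (9.70) and Mpeg1 (9.64) were, like Marco, the highest of the 8 livers there. Clec4f at 7.06 and Vsig4 at 8.20 were the lowest of the 8 livers there, and Csf1r was at neither end. Marco, Clec4f and Vsig4 were singled out after their values were seen. All 10 were brighter than the median of all probe sets. Of 7 clock genes that peak towards evening 7 were higher and 4 had an unadjusted p under 0.05, with a summed linear signal from 1313 to 2866 in MTAP+/- against 682 to 1268 in MTAP+/+ livers. Of 5 clock genes that peak at night 0 were higher and 4 were lower at an unadjusted p under 0.05, with sums from 205 to 313 in MTAP+/- against 315 to 497 in MTAP+/+ livers, and 2 of these 5 lay below the median of all probe sets. Of lymphocyte markers 1 of 7 had an unadjusted p under 0.05, and of neutrophil, stellate cell, endothelial, cholangiocyte and erythroid markers 0 of 5, 0 of 7, 0 of 6, 0 of 4 and 0 of 3. Below the median of all probe sets lay 2 lymphocyte, 2 neutrophil, 0 stellate cell, 1 endothelial, 1 cholangiocyte and 1 erythroid marker. The part of these cells and of the clock in the polyamine values was not tested.

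The wider pathway was read from 28 further genes in 5 lists, of which 24 had a probe set with exactly 1 symbol, and each was taken at its brightest probe set. The other 4 are not analysed here. Apart from Mtap itself 0 of 23 passed the threshold, and at an unadjusted p under 0.05 limma listed 1 higher and 1 lower, where 4.56% and 3.85% of all probe sets were listed higher and lower. The median change of the 23 was -0.08, against -0.01 over all probe sets.

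In the list of ornithine and arginine supply 1 of 7 genes had an unadjusted limma p under 0.05, against 8.41% of all probe sets. This was Slc7a2, a transporter of arginine and ornithine. Its brightest probe set read 9.78, 10.46, 9.84 and 9.97 in MTAP+/- livers, against 8.20, 8.50, 8.96 and 9.54 in MTAP+/+ livers. Every MTAP+/- liver was above every MTAP+/+ liver, with MTAP+/+ liver 4 closest. The change was 1.21 ± 0.26 (SE), or 2.32-fold with a 95% interval of 1.55 to 3.46, with a limma adjusted p of 0.218. The dimmest of its 4 probe sets also kept the genotypes apart (change 1.08, adjusted p = 0.141). The other 2 overlapped, the second with a change of 0.58 (adjusted p = 0.672) and the third with 0.71 (adjusted p = 0.662), and both were highest in MTAP+/- liver 2 (9.002 and 7.80). With 1 array left out, these changes were lowest without MTAP+/- replicate 2, at 0.28 and 0.32. They were highest without MTAP+/- replicate 1, at 0.85 and 1.02. The adjusted p of the brightest ran from 0.0718 (without MTAP+/+ replicate 4) to 0.523 (without MTAP+/+ replicate 1) under the alternatives.

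Other genes of arginine and ornithine supply changed less than Slc7a2. Next by p were Slc7a1, a second arginine transporter (0.27, adjusted p = 0.692), Arg1, the hepatic arginase that releases ornithine (-0.19, adjusted p = 0.8001), and Slc25a15, the mitochondrial ornithine carrier (-0.15, adjusted p = 0.827). The dimmer Slc25a15 probe set changed by -0.45 (limma adjusted p = 0.632), with MTAP+/- livers 1, 3 and 4 below every MTAP+/+ liver. Arg1 read 12.98 ± 0.22 in MTAP+/- and 13.16 ± 0.28 in MTAP+/+ liver (SD, n = 4 each), and the genotypes overlapped.

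In the transport list 1 of 5 genes had an unadjusted limma p under 0.05, against 8.41% of all probe sets. This was Slc18b1, a vesicular polyamine transporter. It read 4.35, 4.12, 4.13 and 3.61 in MTAP+/- livers, against 4.60, 4.20, 4.66 and 4.57 in MTAP+/+ livers. MTAP+/- livers 2, 3 and 4 were below every MTAP+/+ liver, and MTAP+/- liver 1 was above MTAP+/+ liver 2 (change -0.45, limma adjusted p = 0.481). Atp13a3, a P-type ATPase of polyamine uptake, changed by 0.37 at its brightest probe set (adjusted p = 0.632), and the 4 livers with the highest 3′ to 5′ gap were again the 4 highest. MTAP+/- livers 1, 3 and 4 read 8.54, 8.65 and 8.46 there, MTAP+/+ liver 4 read 8.56, and the other 4 livers were at or below 8.09. Of its other probe sets the second changed by 0.27 (adjusted p = 0.751) and the dimmest, below the median of all probe sets, by -0.29 (adjusted p = 0.479, unadjusted p = 0.0172), with MTAP+/- livers 1, 2 and 3 below every MTAP+/+ liver. Slc47a1, an organic cation exporter (-0.12), and Slc3a2, the heavy chain of amino acid exchangers (-0.09), had adjusted p of 0.868 and 0.887.

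**Figure D4:**
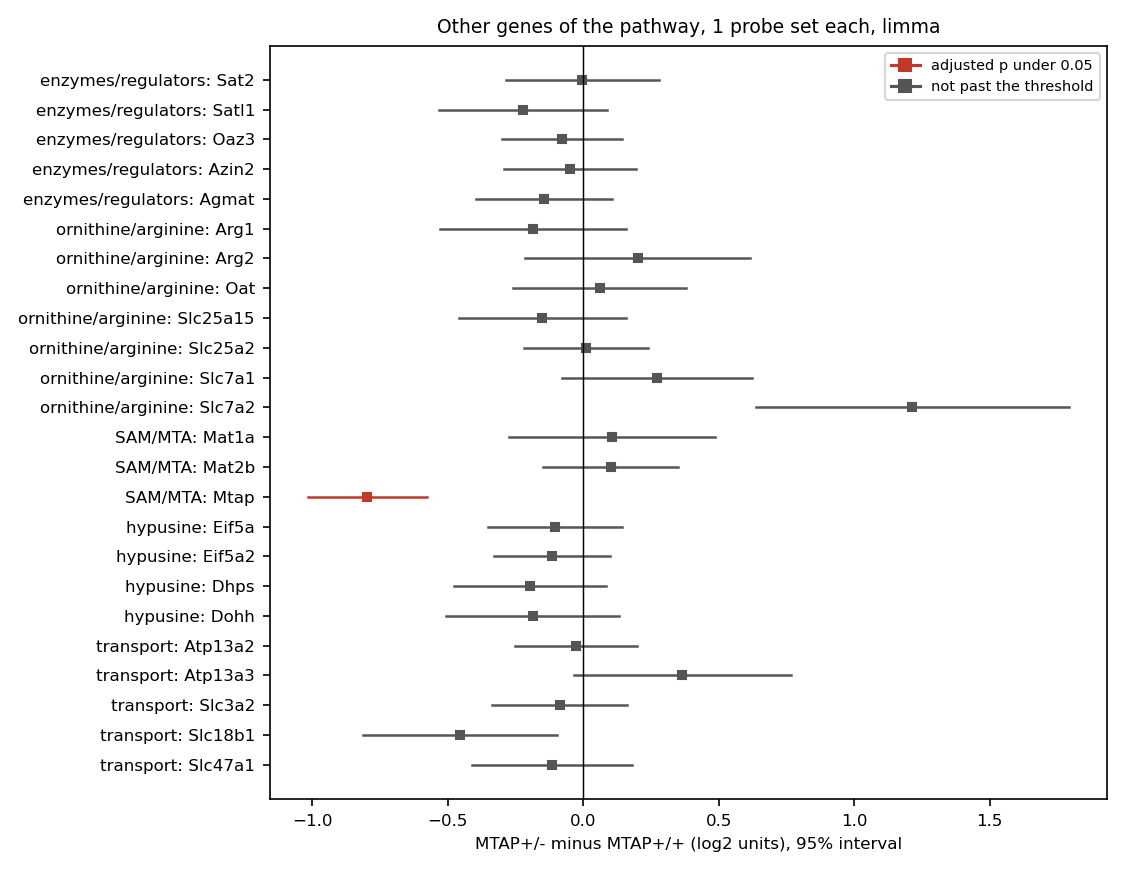
Change of 24 further genes of the pathway by list (horizontal axis, MTAP+/- minus MTAP+/+ in log2 units at the brightest probe set, with 95% intervals from limma). SAM is S-adenosylmethionine and MTA methylthioadenosine. Mtap is the gene past the threshold, and Slc7a2 has the largest change in size.

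Genes that form hypusine, the spermidine-derived residue of the translation factor eIF5A, had 0 of 4 with an unadjusted limma p under 0.05. The share over all probe sets was 8.41%. Dhps, the deoxyhypusine synthase gene, was at -0.20 and Dohh, the hydroxylase gene, at -0.19. The factor genes Eif5a2 and Eif5a were at -0.11 and -0.10, and adjusted p ran from 0.729 to 0.857 over these 4. Their dimmer probe sets were at 0.03 for Dhps, -0.17 for Dohh, 0.11 for Eif5a2 and -0.26 for Eif5a. Each Eif5a2 probe set and the dimmer one of Dohh lay below the median of all probe sets. In the list of further enzymes and regulators 0 of 5 had an unadjusted limma p under 0.05, against 8.41% of all probe sets. Satl1, with a signal below the median of all probe sets, was at -0.22, and Agmat, annotated as agmatinase, at -0.14. The brightest probe sets of Oaz3 and Azin2 were at -0.08 and -0.05. Their other probe sets ran from -0.11 to 0.18 for Oaz3 and from -0.19 to 0.12 for Azin2. Of the genes that supply S-adenosylmethionine, Mat2b was at 0.10 (adjusted p = 0.863) and Mat1a, the liver synthetase, at 0.11 (adjusted p = 0.910).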

How the data were processed

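Total RNA was isolated with TRIzol and biotin-labelled, per the labels' protocols. The authors deposited log2 signals per probe set made with RMA, per the submitters' processing notes, with version and settings not given in the sources used here. Signals were taken as log2 from their range, which ran from 1.64 to 14.72 with array medians from 3.91 to 3.97. RMA compresses changes of dim transcripts. Tests left out 64 control probe sets. Of the other 45037, 34945 had 1 symbol, 932 several and 9160 none in GEO's platform annotation.

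The genotypes were compared with limma 3.58.1 (lmFit, eBayes, two-sided) in R 4.3.3, tested on simulated data. Exact two-sided permutation tests used the 70 assignments of 4 against 4 livers, with 0.0286 the smallest possible p. Wider pathway genes were named by smallest p, up to 4 in each list. Members and lists were chosen with earlier results of these data known. The number of arrays limits the precision, and p-values treat the livers as independent. Summed marker signals are linear, 2 to the power of the log2 signal. Alternatives were eBayes settings, normalisation, centring, a filter on dim probe sets, array weights, the 3′ minus 5′ covariate, the replicate number as a block, probe set kinds, gene-level values and leaving out each array.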

Additional observations from a re-analysis of the deposited data

Results flagged for a closer look

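In 1 of 36 genotype groups of 4 livers checked over the polyamine and Mtap probe sets, a liver stood far from the others. This was the dimmest Azin1 probe set in MTAP+/+ liver 1, at 3.35, where the nearest of the other MTAP+/+ livers was at 3.73. Chance flags about 1 in 20 such groups. Its mean signal is below the median of all probe sets, and MTAP+/- liver 1 was also low there, at 3.40.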

How the results depend on the processing

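Of 217 recomputed changes of the 14 polyamine probe sets 207 kept their direction and side of the threshold, and 0 passed it in any alternative. The count with an unadjusted p under 0.05 ran from 2 to 4, and their median change from 0.0067 to 0.091. Directions turned for small changes only. With 1 array left out these ran from -0.070 to 0.13 for the brightest Odc1 probe set, from -0.061 to 0.14 for the brighter Smox probe set, from -0.0083 to 0.073 for Oaz1, from -0.10 to 0.047 for the brightest of Oaz2 and from -0.16 to 0.00092 for the dimmest of Azin1. The brightest of Oaz2 was at 0.0031 with the 3′ minus 5′ covariate, and averaging the probe sets within a gene gave -0.017 for Smox and 0.025 for Oaz2. The cause was not tested.

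Over all probe sets 16 passed, against 42 with the 3′ minus 5′ covariate, 25 with the replicate block and 5 to 21 with 1 array left out. At gene level 10 genes were called from probe sets, 9 with the brightest probe set of each gene and 4 with the mean of its probe sets. Deviations of same-numbered livers correlated at -0.074, 0.22, 0.0049 and 0.23, and those of differently numbered livers from -0.38 to 0.19. Whether a replicate number stands for a shared litter or day is not in the labels, and so few correlations cannot settle it. With the block the Sat1 change had an adjusted p of 0.145. Of 8 arrays, leaving out MTAP+/- replicate 1 or 3 or MTAP+/+ replicate 1, 2 or 3 moved the count over all probe sets by over 1.5 times, to 5, 7, 7, 9 and 6. Signal over background limits the dimmer Smox and the dimmest Azin1 probe set.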
